A study of Homo sapiens with 12 samples.

Results

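Chemokines are small secreted or membrane-tethered proteins that guide leukocytes along concentration gradients, and 10 of those made by epithelia were taken for a closer look in differentiated Caco-2 cells exposed to silver. Members were the probe sets that the platform annotation pairs with exactly 1 symbol among CXCL8 (also called IL8), CXCL1, CXCL2, CXCL3, CXCL5, CXCL10, CXCL16, CCL20, CCL15 and CX3CL1. This gave 9 of the 10 genes, among 19775 measured, and 15 of 54675 probe sets. The only probe set listed for CCL15 carries several symbols, so CCL15 was not analysed here. The rule goes by gene name and uses no measured value, but the genes were chosen with earlier results of these data known.

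Caco-2 is a colon carcinoma cell line whose confluent monolayers acquire enterocyte features, and here all cells were at passage 22 and had been confluent for 21 days. Each of the 4 groups had 3 arrays: medium alone, 2.5 µg/mL of silver nanoparticles coated with a surfactant (AgPURE), 25 µg/mL of these nanoparticles, and silver ions given as silver nitrate (AgNO3) at 0.5 µg/mL. All groups, medium included, spent the 24 h of exposure in 20 mL of DMEM with insulin, transferrin and selenium and with penicillin and streptomycin. No group received the surfactant alone, the ion and particle doses differed, and a single line was used. Whether the 3 arrays of a group stand for separate cultures is not given in the labels. The p-values therefore cover array-to-array spread only, and that spread may be technical.

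In intestinal epithelium, chemokine genes are the classical output of NF-kB, the transcription factor that cytokines and bacterial products activate, often together with AP-1, the dimer of FOS and JUN proteins. CXCL1, CXCL2, CXCL3, CXCL5 and CXCL8 carry the glutamate-leucine-arginine motif ahead of their paired cysteines and attract neutrophils through CXCR2, and CXCL8 also through CXCR1. CXCL10 lacks this motif, is induced by interferons and attracts activated T cells through CXCR3. CCL20 attracts dendritic cells and lymphocytes with CCR6, and CXCL16 and CX3CL1 are made as transmembrane proteins that ADAM proteases release.

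The stretches before the gene starts are shown because 6 members share an NF-kB motif there, of which CXCL8 and CXCL5 were called higher at 25 µg/mL of nanoparticles (as were 14.1% of all genes) and the other 4 were not called. RefSeq's promoter table (GRCh38.p14) held 8 of the 10 genes, and the 250 bases before each start were searched on both strands for GGAATTTCC, an NF-kB motif, and TGANTCA, an AP-1 motif. The 2 motifs did not overlap in any member. The CXCL8 stretch is chr4:73740319-73740568 on the plus strand, with the AP-1 match and then the NF-kB match in capitals. For the other 5 genes only the 49 bases around the NF-kB match are given, with that match in capitals. They lie at chr4:73869295-73869343 (plus strand) for CXCL1, chr4:74099244-74099292 (minus) for CXCL2, chr4:74038739-74038787 (minus) for CXCL3, chr4:73998739-73998787 (minus) for CXCL5 and chr4:76023645-76023693 (minus) for CXCL10. All are written 5′ to 3′ on the strand of the gene, on which the CXCL10 match reads as the reverse complement of the motif.
CXCL8: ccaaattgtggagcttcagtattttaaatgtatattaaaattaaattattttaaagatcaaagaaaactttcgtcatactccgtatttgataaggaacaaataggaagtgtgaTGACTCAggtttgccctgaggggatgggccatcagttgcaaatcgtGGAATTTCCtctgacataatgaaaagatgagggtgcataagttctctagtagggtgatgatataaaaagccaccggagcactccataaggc
CXCL1: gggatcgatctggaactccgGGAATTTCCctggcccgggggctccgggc
CXCL2: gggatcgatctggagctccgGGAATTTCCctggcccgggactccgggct
CXCL3: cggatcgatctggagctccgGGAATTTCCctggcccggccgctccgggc
CXCL5: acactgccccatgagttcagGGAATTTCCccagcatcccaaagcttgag
CXCL10: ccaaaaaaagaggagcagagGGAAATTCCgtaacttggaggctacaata

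GGAATTTCC was present in CXCL8, CXCL1, CXCL2, CXCL3, CXCL5 and CXCL10, and in 0.413% of the 35116 stretches of this length in the table. Counted back from the gene start, it began at base -91 in CXCL8, -78 in CXCL1 and CXCL3, -77 in CXCL2, -90 in CXCL5 and -176 in CXCL10. CXCL8 alone among the 8 had the AP-1 letters, from base -137, and 6.57% of all stretches hold them. Neither motif occurred in the CCL20 or CCL15 stretch, which says only that these letters are not in this window. Other forms of the NF-kB motif and of the AP-1 motif were not searched. The stretches of CXCL1 and CXCL3 were identical at 81.4% of aligned positions, those of CXCL2 and CXCL3 at 73.3% and those of CXCL1 and CXCL2 at 67.9%, against 42.8% for CXCL8 and CXCL1. A match is a description of the letters and not of a bound site.

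**Figure D1:**
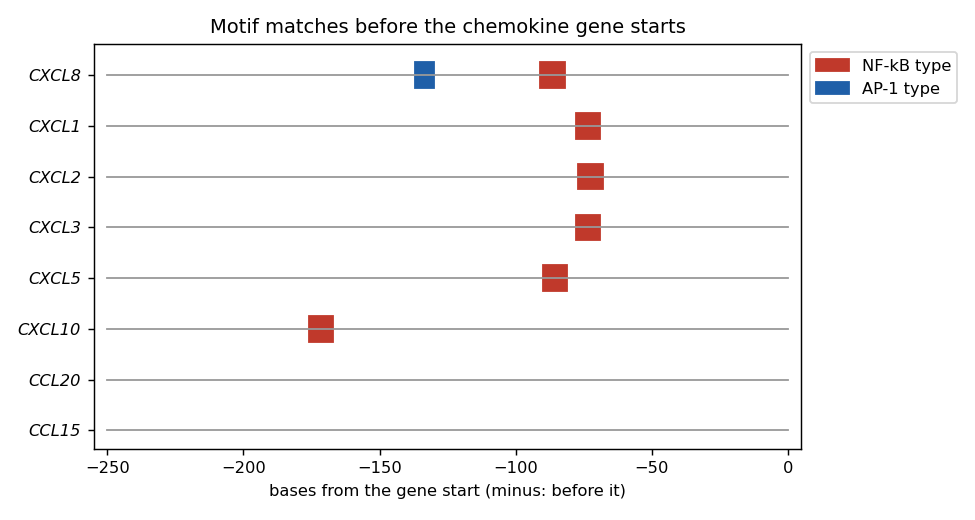
Position of the motif matches in the 250 bases before the start of 8 chemokine genes, in bases from the start (minus means before it). Red marks the NF-kB letters GGAATTTCC, the only form searched, present in 6 genes. Blue marks the AP-1 letters TGANTCA, also the only form searched, and CXCL8 is the only gene drawn with an AP-1 match.

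Deposited values are log2 expression values, so a difference of 1 is a 2-fold change. RMA was used by the authors and usually sets the arrays' distributions equal, so a change in total mRNA per cell would not show, and in such bulk samples fewer cells of a type and less RNA per cell cannot be told apart. Across probe sets, Pearson's r was 0.992 to 0.996 within groups and 0.978 to 0.981 between medium and 25 µg/mL arrays. Epithelial markers were high (EPCAM 13.2, CDH1 12.5, KRT18 13.7 and VIL1 10.4 in medium), whereas KRT20, LGALS4, SI and ANPEP, also enterocyte markers, lay below the median of all genes on all 12 arrays. Of 8 leukocyte markers, 6 (PTPRC, CD3E, ITGAM, CSF1R, FCER1G and S100A8) lay below that median on all 12 arrays. CD14 lay below it on 6 arrays and LYZ on 0, with means of 5.93 and 8.99 in medium. The mean over the 8 was 5.13 to 5.28 on medium arrays and 4.85 to 5.14 at 25 µg/mL. Between these groups 0 of the 8 were called higher and 2 (LYZ and CD14) lower, beside 14.1% and 19.3% of all genes.

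At 25 µg/mL of nanoparticles, CXCL8 had the largest change of the 9 members. By limma with Benjamini-Hochberg adjustment over all 19775 genes, 3 of 9 members were higher than in medium (CXCL8, CCL20 and CXCL5) and 2 were lower (CXCL16 and CX3CL1) at an adjusted p under 0.05. Over all genes, 14.1% were called higher and 19.3% lower in this comparison, so many genes outside the list changed too. By probe set, 3 of the 15 were higher (both of CXCL8 and 1 of CXCL5) and 2 lower (of CXCL16 and CX3CL1), beside 12.5% and 13.4% of all probe sets. The median log2 fold change of the 9 members was 0.09, beside -0.01 for all genes. The arrays did not overlap with medium for 2 members above it (CXCL8 and CXCL5; 19.8% of all genes) and 3 below it (CXCL10, CXCL16 and CX3CL1; 25.9%). CXCL8 rose 6.62-fold, whereas the other 2 rises were below 1.4-fold.

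**Figure D2:**
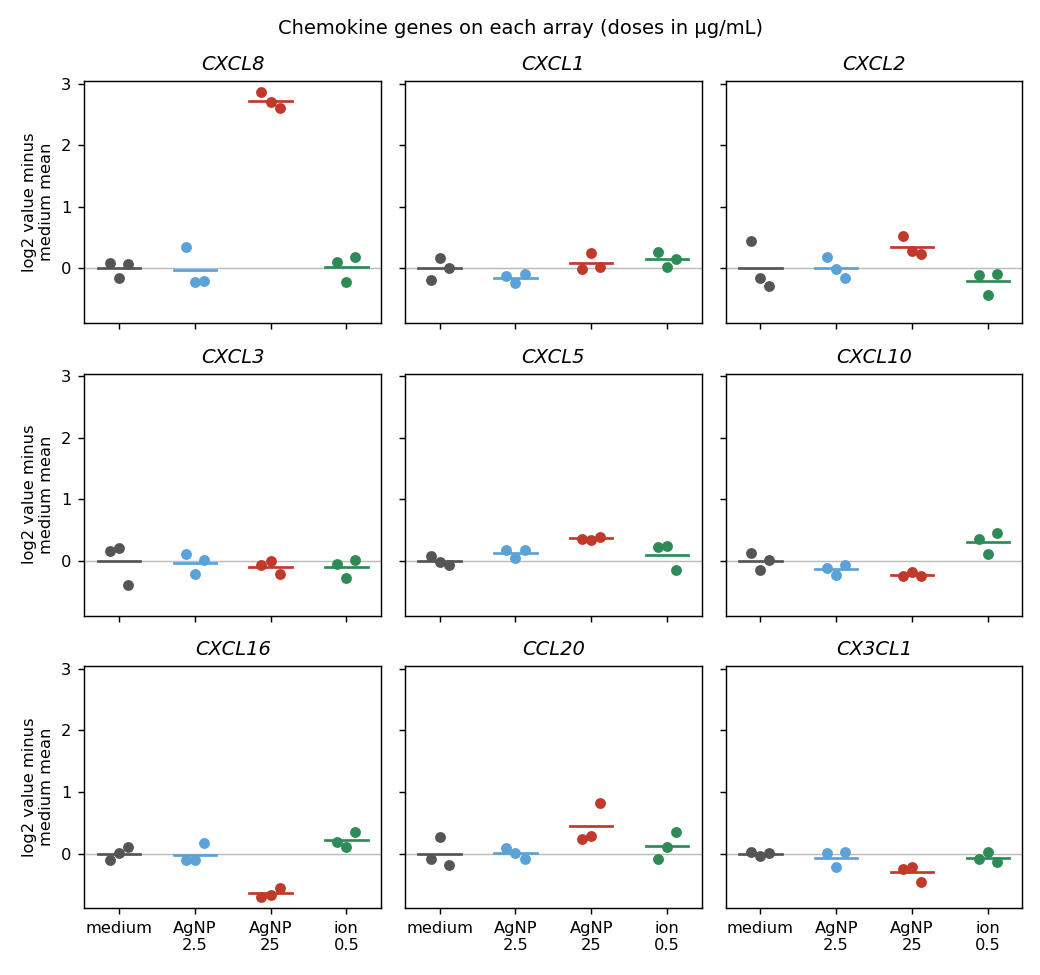
Log2 value minus the gene's medium mean on each of the 12 arrays, for 9 chemokine genes. Points are arrays, horizontal bars are group means, and all panels share 1 scale. The 3 CXCL8 points at 25 µg/mL stand apart from the other 9, and the CXCL16 points at 25 µg/mL lie below all others of that gene.

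Among the neutrophil attractants, CXCL8 read 4.39, 4.14 and 4.37 on the medium arrays and 4.65, 4.08 and 4.10 at 2.5 µg/mL. It read 7.16, 7.00 and 6.91 at 25 µg/mL and 4.41, 4.08 and 4.49 with ions. All 3 arrays at 25 µg/mL lay more than 2 log2 units above every other array, and the other 3 groups overlapped. The log2 fold change against medium was 2.73 ± 0.15 (SE; limma adjusted p = 1.2e-08), from a mean of 4.30 ± 0.14 to 7.03 ± 0.13 (SD, n = 3). The 9 arrays of the other groups lay below the median of all genes, so the size of the fold depends on a background that the values do not state. The second CXCL8 probe set read 3.89, 3.63 and 3.76 in medium and 4.88, 4.78 and 4.84 at 25 µg/mL, a log2 fold change of 1.07 ± 0.11 (limma adjusted p = 2.5e-06 over all probe sets). Both probe sets thus rose on all 3 arrays, by different amounts, and their mean gave 1.90. The rise of CXCL8 kept its call in all 12 fits that left out 1 array, with log2 fold changes between 2.65 and 2.78.

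CXCL1, CXCL2 and CXCL3, the closest relatives of one another, did not pass the test against medium. CXCL1 read 4.67, 5.03 and 4.86 in medium and 4.85, 5.11 and 4.87 at 25 µg/mL, beside 4.73, 4.61 and 4.76 with the low particle dose and 5.12, 4.88 and 5.01 with ions (25 µg/mL against medium: log2 fold change 0.09, 95% interval -0.14 to 0.32, limma adjusted p = 0.59). CXCL3 read 5.02, 5.07 and 4.47 in medium and 4.80, 4.85 and 4.64 at 25 µg/mL, beside 4.97, 4.64 and 4.87 with the low particle dose and 4.81, 4.58 and 4.87 with ions (-0.09, interval -0.40 to 0.22, limma adjusted p = 0.70). The intervals of both exclude a change of the size seen for CXCL8. Their medium and 25 µg/mL arrays overlapped, and all 12 arrays of either gene lay below the median of all genes.

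CXCL2 read 5.41, 4.80 and 4.67 in medium, 5.14, 4.95 and 4.81 at the low particle dose (2.5 µg/mL), 5.49, 5.25 and 5.19 at the high dose, and 4.86, 4.53 and 4.87 with ions, on the probe set with the highest mean. One medium array was as high as the arrays at 25 µg/mL, and the fold change of 0.35 (interval -0.01 to 0.70) had a limma adjusted p of 0.13. Without that array, medium replicate 1, it was 0.57 with an adjusted p of 0.0054. The other 2 probe sets of CXCL2 had log2 fold changes of 0.05 and -0.14 and did not pass. The main probe sets of CXCL2, CXCL5 and CXCL8 carry the suffix _x_at, which on this platform marks probes that can also bind other transcripts.

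CXCL5 rose on its main probe set, which read 4.44, 4.34 and 4.29 in medium, 4.54, 4.41 and 4.53 at the low particle dose (2.5 µg/mL), 4.72, 4.70 and 4.75 at the high dose and 4.58, 4.60 and 4.20 with ions. Its log2 fold change at 25 µg/mL was 0.37 ± 0.10 (SE; limma adjusted p = 0.011), and the 3 arrays lay above all others. The other 2 CXCL5 probe sets gave 0.01 and 0.07 and did not pass (limma adjusted p = 0.97 and 0.68 over all probe sets). With the mean of the 3 probe sets the change was 0.15 and the call was lost (adjusted p = 0.15).

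**Figure D3:**
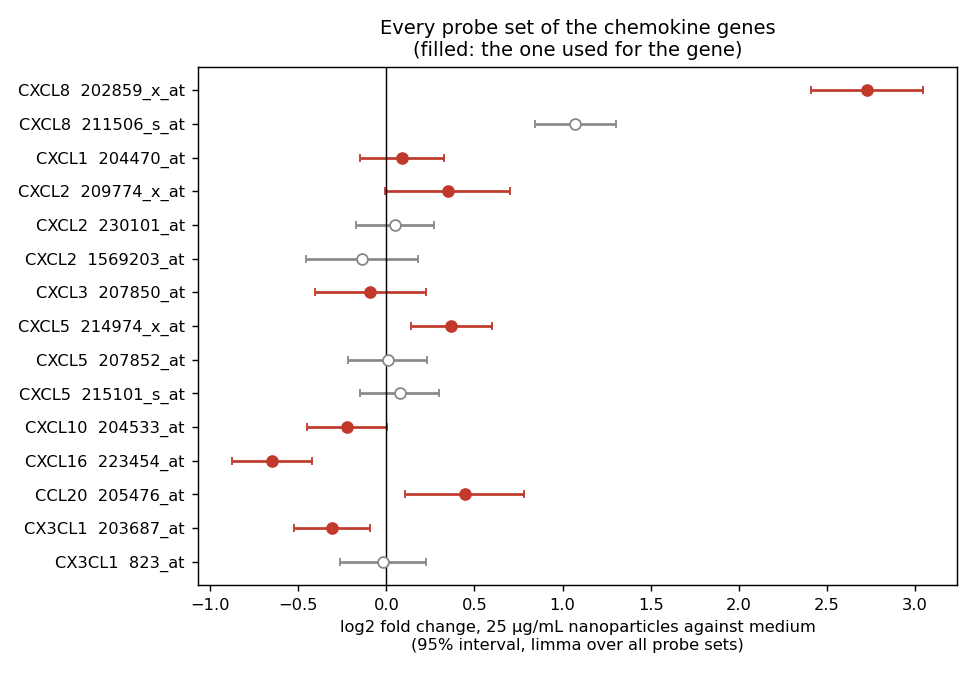
Log2 fold change between 25 µg/mL nanoparticles and medium for each of the 15 probe sets, with 95% intervals from limma over all probe sets. Filled symbols mark the probe set used for the gene. Both CXCL8 probe sets lie to the right of 0, at 2.73 and 1.07, whereas single probe sets of CXCL5 and CX3CL1 depart from 0 and the others of these genes do not.

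On chromosome 4, RefSeq (GRCh38.p14) places CXCL8, CXCL6, PF4V1, CXCL1, PF4, PPBP, CXCL5, CXCL3 and CXCL2 next to one another in this order. Of these 9 neighbours, all chemokine genes, CXCL8 and CXCL5 were called higher at 25 µg/mL, CXCL5 by its main probe set only. Over all genes, 14.1% were called higher and 19.3% lower. CXCL6, a neutrophil attractant like CXCL5, had a log2 fold change of -0.16, and the platelet chemokine genes PF4V1, PF4 and PPBP had -0.12, -0.24 and -0.28, none of which passed (limma adjusted p between 0.056 and 0.36).

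The T cell attractant CXCL10 had its highest values with ions and its lowest at 25 µg/mL. It read 4.88, 4.60 and 4.76 in medium, 4.64, 4.53 and 4.68 at the low particle dose (2.5 µg/mL), 4.51, 4.56 and 4.51 at the high dose, and 5.11, 4.87 and 5.21 with ions. The 25 µg/mL arrays lay below all medium and ion arrays, and the ion arrays overlapped with medium. Against medium the log2 fold change was -0.22 at 25 µg/mL (limma adjusted p = 0.11) and 0.31 with ions (unadjusted p = 0.0076, adjusted p = 0.78), and neither passed. Between them it was -0.53 ± 0.10 (SE; limma adjusted p = 0.00079), kept in all 12 fits without 1 array. All 12 values lay below the median of all genes.

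The transmembrane chemokine genes fell. CXCL16, which also acts as a scavenger receptor for lipoproteins, read 8.27, 8.38 and 8.47 in medium, 8.26, 8.27 and 8.54 at the low particle dose (2.5 µg/mL), 7.66, 7.70 and 7.81 at the high dose, and 8.55, 8.48 and 8.73 with ions. The 25 µg/mL arrays lay below all 9 others, and the ion arrays above the medium arrays. CXCL16 was 1.57-fold lower than in medium at 25 µg/mL (log2 fold change -0.65 ± 0.10 SE; limma adjusted p = 0.00016), and all 12 fits without 1 array kept the call. Its values lay above the median of all genes on every array.

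CX3CL1, fractalkine, read 5.01, 4.94 and 4.99 in medium, 4.99, 4.76 and 5.0 at the low particle dose (2.5 µg/mL), 4.73, 4.77 and 4.52 at the high dose, and 4.89, 5.01 and 4.85 with ions. The 25 µg/mL arrays lay below the medium arrays and touched the low-dose range. The log2 fold change was -0.31 ± 0.09 (SE; limma adjusted p = 0.021). The other probe set gave -0.02 and did not pass. The call did not hold when medium replicate 1 (adjusted p = 0.061) or 3 (0.055) or 25 µg/mL replicate 3 (0.10) was left out, with the mean of both probe sets (-0.16) and with median centring (-0.20).

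CCL20, the ligand of CCR6, read 6.13, 6.49 and 6.04 in medium, 6.31, 6.22 and 6.14 at the low particle dose (2.5 µg/mL), 6.45, 6.51 and 7.04 at the high dose, and 6.13, 6.32 and 6.58 with ions. At 25 µg/mL replicate 3 was high, replicate 2 lay just above the highest medium array and replicate 1 lay within the medium range. The log2 fold change of 0.44 ± 0.16 (SE) passed narrowly (limma adjusted p = 0.043). It was kept in 5 of 12 fits that left out 1 array, and lost without 25 µg/mL replicate 3 (0.26, adjusted p = 0.22), medium replicate 1 (0.12) or 3 (0.16), any 2.5 µg/mL array (0.051 to 0.055) or ion replicate 2 (0.053). It was also lost when every probe set was tested (0.051) and in a model of just these 2 groups (0.076).

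**Figure D4:**
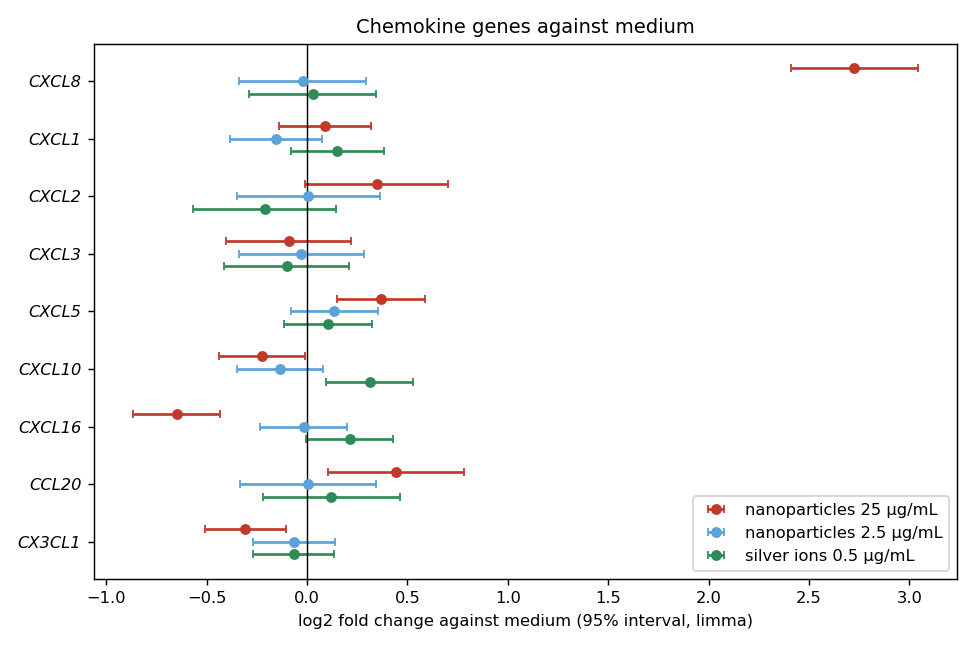
Log2 fold change against medium with 95% intervals from limma, for 9 chemokine genes and 3 exposures. Red is 25 µg/mL nanoparticles, blue 2.5 µg/mL nanoparticles and green 0.5 µg/mL silver ions. CXCL8 at 25 µg/mL, at 2.73, is the only interval that lies beyond 1.

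These directions are relative to the authors' normalization. The control probe sets that are spiked in before labelling (poly-A) and before hybridization read 0.61 and 0.43 higher at 25 µg/mL than in medium, and scaling the arrays on them lowers every gene by these amounts. The median log2 fold change of all genes then went from -0.01 to -0.62 (poly-A) and -0.44 (hybridization), and the calls over all genes from 2796 higher and 3811 lower to 179 and 14081, and to 508 and 12835. CXCL8 kept its rise under both scalings (2.11 and 2.30). CXCL16 (-1.26 and -1.08) and CX3CL1 (-0.92 and -0.73) fell further, which the scalings make certain, so they do not test these falls. CXCL5 turned to -0.24 and -0.06 and CCL20 to -0.17 and 0.02, none of them called. CXCL10 was called lower under both (-0.84 and -0.65), as was CXCL3 (-0.70 and -0.52). CXCL1 was called lower under poly-A scaling, at -0.52 (adjusted p = 0.038).

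**Figure D5:**
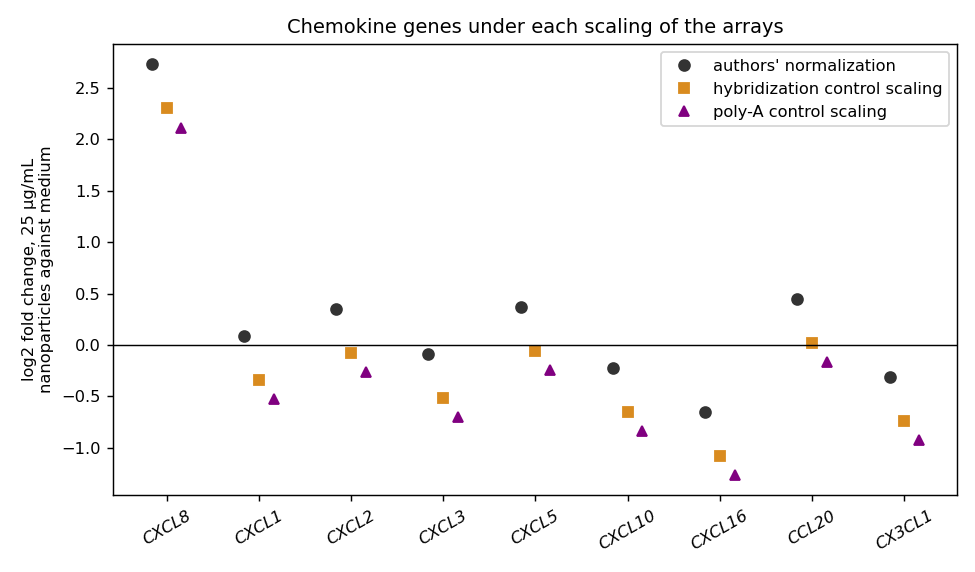
Log2 fold change between 25 µg/mL nanoparticles and medium for each chemokine gene under the authors' normalization (circles), hybridization control scaling (squares) and poly-A control scaling (triangles). CXCL8 stays above 2 under all 3, and CXCL5 and CCL20 move from 0.37 and 0.44 to values near or below 0.

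At 2.5 µg/mL of nanoparticles and with 0.5 µg/mL of silver ions, 0 of 9 members passed against medium by limma, as did 0 of all genes (0%), and no alternative called a member. Among all probe sets 1 (0.00183%), not a member's, was lower with ions. Of all genes, 900 and 1233 had an unadjusted p under 0.05, and of the members 0 and 1 (CXCL10 with ions). CXCL8 had log2 fold changes of -0.02 (95% interval -0.34 to 0.30) and 0.03 (-0.29 to 0.35). The widest intervals were those of CXCL2, from -0.35 to 0.36 at the low dose and from -0.57 to 0.15 with ions. At 2.5 µg/mL no member's arrays separated from medium in either direction (5.45% of all genes lay wholly above and 4.51% wholly below), and with ions CXCL16 alone lay wholly above (5.32%) and no member wholly below (5.13%). Between low-dose particles and ions 0 members passed, with 3 at an unadjusted p under 0.05 (CXCL1, CXCL10 and CXCL16, each lower with the particles) beside 1735 of all genes. CXCL1 and CXCL10 lay wholly below the ion arrays (6.98% of all genes) and no member wholly above (6.39%).

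Set against the low particle dose, 25 µg/mL gave higher CXCL8 (2.75 on the log2 scale) and CCL20 (0.44; limma adjusted p = 9.3e-09 and 0.045) and lower CXCL16 (-0.63, adjusted p = 0.00019). In this comparison 13.7% of all genes were called higher and 20.3% lower, and 12.1% and 13.9% of all probe sets. The arrays of CXCL8, CXCL1, CXCL2, CXCL5 and CCL20 lay wholly above (19.6% of all genes) and those of CXCL16 wholly below (25.7%). CXCL1 did not pass (0.25, limma adjusted p = 0.097). The CCL20 call did not hold without 25 µg/mL replicate 3 (adjusted p = 0.22), any 2.5 µg/mL array (0.060 to 0.13), medium replicate 1 (0.051) or ion replicate 2 (0.054).

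Set against ions, 25 µg/mL particles gave higher CXCL8 (2.70) and CXCL2 (0.56 ± 0.17 SE, limma adjusted p = 0.018), and lower CXCL16 (-0.86, adjusted p = 1.5e-05) and CXCL10. Over all genes 13.7% were called higher and 18.6% lower, and over all probe sets 12.7% and 12.1%. The arrays of CXCL8, CXCL2 and CXCL5 lay wholly above (18.8%) and those of CXCL10, CXCL16 and CX3CL1 wholly below (24.3%). The CXCL2 difference rested on its main probe set, whereas the others gave -0.18 and 0.02, and it was lost without 25 µg/mL replicate 1 (adjusted p = 0.078) or ion replicate 2 (0.084). Over the 4 groups at once, the moderated F test called CXCL8, CXCL16 and CXCL10 (limma adjusted p = 1e-08, 5.7e-05 and 0.0032), 3 of 9 members beside 31.8% of all genes. Comparisons with 25 µg/mL share those arrays.

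The genes whose 12 values lay closest to those of CXCL8, each taken relative to its own medium mean, were SRXN1, ZFAND2A, PLK2, FOSL1 and DNAJB1. Their root mean square distances over 12 arrays were 0.18, 0.21, 0.23, 0.23 and 0.26 on the log2 scale. SRXN1 encodes sulfiredoxin, which repairs oxidized peroxiredoxins, PLK2 a stress-responsive kinase, FOSL1 a subunit of AP-1 and DNAJB1 a co-chaperone of HSP70. The 5 genes rose by 2.58, 2.48, 2.81, 2.96 and 3.09 at 25 µg/mL and had changes between -0.19 and 0.10 in the other groups. These changes follow from the choice of the genes on the same 12 values. The nearest other member, CCL20, stood at 1657 of 19774 in this order, and CXCL1, CXCL3 and CXCL16 at 6631, 12244 and 18416.

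The pathway and marker lists that follow are counted at 25 µg/mL against medium, where 14.1% of all genes were higher and 19.3% lower. Under poly-A scaling, 179 of all 19775 genes were higher there and 14081 lower, and under hybridization scaling 508 and 12835. Of 28 other chemokine genes measured, 1 rose and 3 fell (median 0.01), and under poly-A and hybridization scaling 1 was higher in either and 23 and 20 were lower. CCL26, eotaxin-3, which attracts eosinophils through CCR3, read 3.72, 4.28 and 3.77 in medium and 6.18, 6.29 and 6.69 at 25 µg/mL. It rose by 2.46 ± 0.15 on the log2 scale (SE; limma adjusted p = 3.2e-08), a size close to that of CXCL8, from values below the array medians. XCL1, lymphotactin, fell by 1.12, CCL28, a mucosal chemokine, by 0.72 and CXCL17 by 0.56. The probe sets of XCL1, of PF4 above and of JUN and HNRNPD below also carry the suffix _x_at, so their probes can bind other transcripts. The low-dose and ion arrays of CCL26 lay between 3.65 and 4.05.

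Of 20 chemokine receptor genes, 2 rose and 4 fell (median 0.05), against 0 higher and 12 lower with poly-A scaling and 1 and 10 with the hybridization controls. CCR10, the receptor for CCL28, fell by 1.33, ACKR3, a scavenger of CXCL12, by 0.83 and CXCR3, the receptor for CXCL10, by 0.51, while CCR7, a homing receptor of lymphocytes, rose by 0.82 from a mean of 3.61, a call lost under poly-A scaling (0.21). The other receptors of the members' products did not pass against medium, with log2 fold changes of -0.12 for CXCR1, 0.22 for CXCR2, 0.21 for CCR6, 0.04 for CXCR6 and -0.02 for CX3CR1. Of 13 proteases and inhibitors that act on chemokines, 5 rose and 1 fell (median 0.12), against 3 higher and 7 lower with poly-A scaling and 3 and 6 with the hybridization controls. The matrix metalloproteinase genes MMP1, MMP10 and MMP7 rose by 2.92, 2.42 and 1.49, and kept their calls under both control scalings, whereas TIMP1, an inhibitor of these enzymes, had 0.55 and lost its call under both.

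Upstream of the chemokine genes, of 13 AP-1 and C/EBP genes, 7 rose and 3 fell (median 0.49, beside -0.01 for all genes), against 5 higher and 5 lower under either control scaling. FOSL1 rose by 2.96, FOS by 2.59, ATF3 by 1.85 and JUN by 1.53, and all of these kept their calls under both control scalings. Of 17 NF-kB subunit and feedback genes, 4 rose and 2 fell (median 0.10), against 0 higher under either scaling and 10 (poly-A) and 6 (hybridization) lower. Of all 19775 genes, 14081 and 12835 were lower under these scalings. RELB and IKBKG had 0.58 and 0.45, and IKBKB and REL -0.56 and -0.45. The rises of RELB and IKBKG were lost under both scalings, RELB turning to -0.04 and IKBKG to -0.16 under the poly-A one.

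Of 24 inducing cytokines and receptors, 5 rose and 6 fell (median -0.05), against 0 higher and 16 lower under either scaling (medians -0.66 and -0.47). IL1RAP, the shared subunit of the interleukin-1 receptor, had a log2 fold change of -1.52, and TNFRSF1B, IL22RA1 and IL1R1 had -0.72, -0.68 and -0.55. Of 18 pattern receptors and adaptors, 2 rose and 6 fell (median -0.17), against 0 and 13 under either scaling (medians -0.78 and -0.59). IFIH1, a sensor of double-stranded RNA, fell by 1.59, TLR5, the flagellin receptor, by 0.85 and TLR2 by 0.43, whereas TRAF6 was 0.42 higher and turned to -0.19 under poly-A scaling.

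Of 12 interferon factors and targets, 0 rose and 7 fell (median -0.96), against 0 and 11 under either scaling, with IFIT1, IFIT2, ISG15 and IFIT3 at -3.09, -2.07, -1.85 and -1.84. These antiviral genes, like CXCL10, are interferon-induced. Of 8 regulators of chemokine mRNA decay, 6 rose and 1 fell (median 0.32), against 1 higher and 2 lower under either scaling. DUSP1, a phosphatase that limits p38 signalling, rose by 2.27 and ZFP36L2 fell by 0.69, while ZFP36, which binds AU-rich elements, and HNRNPD had 0.44 and 0.54 and turned to -0.17 and -0.07 under poly-A scaling. In these lists 0 genes passed at 2.5 µg/mL or with ions. The median of the AP-1 list turned to -0.12 under poly-A scaling and that of the decay list to -0.29, where the median of all genes was -0.62. The medians of the other chemokines, the receptors, the NF-kB list and the proteases turned to -0.60, -0.56, -0.51 and -0.50 there, and to -0.41, -0.38, -0.33 and -0.31 under hybridization scaling, which left the AP-1 list at 0.06 and the decay list at -0.11.

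Of 13 markers of the epithelium itself, 1 rose and 5 fell at 25 µg/mL, and the rest were not called. Under poly-A scaling 0 were higher and 11 lower, and under hybridization scaling 0 and 9. Those that fell included FABP1 (-1.59), ALPI (-1.38), VIL1 (-0.50) and CDX2 (-0.44). KRT18, KRT8, KRT20 and ANPEP had higher means at 25 µg/mL (14.0, 12.6, 4.77 and 4.34) than in medium (13.7, 12.5, 4.69 and 4.13). The means of the other markers were lower. The mean over the list was 8.04 to 8.06 at 25 µg/mL and 8.36 to 8.40 in medium. Of 8 fibroblast markers, 1 rose and 2 fell (COL3A1 and LUM), while COL1A1 read 9.21 in medium, and the rise, of COL1A2 (0.34), was lost under both control scalings. Of 4 endothelial markers, CDH5 rose by 0.96, from a mean of 3.90, and 0 fell. Under poly-A scaling CDH5 lost its call (0.34, limma adjusted p = 0.17) and 2 of the 4 were lower. Under hybridization scaling CDH5 kept its call (0.53, limma adjusted p = 0.0039) and 2 were lower. The fibroblast mean was 5.52 to 5.58 in medium and 5.21 to 5.23 at 25 µg/mL, the endothelial one 4.50 to 4.64 and 4.74 to 4.90. Of the 8 leukocyte markers, 0 were higher and 7 lower under poly-A scaling, and 0 and 6 under hybridization scaling. The part of these shifts in the chemokine results was not tested.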

How the data were processed

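Total RNA of 12 samples was measured on 3′ expression arrays. The authors deposited log2 values for each probe set, made with RMA and Partek per the submitters' processing notes, with versions and settings not given in the sources used here. No detection calls come with the values, so dim genes have no stated background. Symbols came from the platform annotation, updated through gene IDs. A gene was represented by that one of its 1-symbol probe sets whose mean was highest (19775 genes), and every probe set (54613 without the 62 controls) was also tested.

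One linear model over the 4 groups was fitted with limma 3.58.1 in R 4.3.3 (two-sided, residual degrees of freedom 8, prior 6.25), with Benjamini-Hochberg adjustment over all genes and a threshold of 0.05. It was tested on simulated data. The 9 pathway and 4 marker lists held 199 entries, of which 186 were measured. Named genes were all members, up to 4 called genes per list with the largest changes at 25 µg/mL, and the 5 genes closest to CXCL8. Named outside this rule, after their values were seen, were the members' receptors, their chromosome 4 neighbours and markers that describe the cells (among them EPCAM, CDH1, KRT18, COL1A1 and those below the median of all genes). The members and lists were chosen with earlier results of these data known, and the motifs after the values were seen. Alternatives were quantile normalization, median centring, probe set means, every probe set, a filter on dim genes, an intensity trend, a threshold of 0.01, models of just the compared groups, control scalings and leaving out each array. Promoters were aligned with Biopython 1.88 and figures drawn with matplotlib 3.10.9.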

Additional observations from a re-analysis of the deposited data

Results flagged for a closer look

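Control probe sets outside the gene measurements read higher at 25 µg/mL than on any medium array. For 24 poly-A controls the mean log2 difference to medium was 0.61, with array means of 6.21, 5.56 and 6.31 against 5.31, 5.54 and 5.39. For 18 hybridization controls it was 0.43, with array means of 10.97, 10.89 and 11.08 against 10.57, 10.43 and 10.66. Their part in the chemokine results was not tested beyond the scalings given with those results.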

How the results depend on the processing

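The rise of CXCL8, the fall of CXCL16 and the difference of CXCL10 between 25 µg/mL particles and ions kept their direction and call under every alternative that tested them. The control scalings could not turn the CXCL16 and CXCL10 differences. The filter on dim genes removed CXCL8 and all other members except CXCL16 and CCL20, so it gives no value for them, and counts under it are 1 higher and 1 lower against medium, 1 higher against 2.5 µg/mL, 0 higher and 1 lower against ions and 1 over the 4 groups. For 25 µg/mL against medium, members called higher fell from 3 to 1 at an adjusted p under 0.01 and under either control scaling, and members called lower went from 2 to 1 with median centring, probe set means or an adjusted p under 0.01, to 5 with poly-A and to 4 with hybridization scaling. Against 2.5 µg/mL, 2 higher became 5 with median centring and 1 with every probe set, an adjusted p under 0.01 or either scaling, and 1 lower became 6 (poly-A) or 4 (hybridization). Against ions, 2 higher became 4 with quantile normalization or median centring and 1 with probe set means, an adjusted p under 0.01 or either scaling, and 2 lower became 6 and 5 under the scalings. Of all 19775 genes, 14081 and 12835 were lower against medium under poly-A and hybridization scaling. Against 2.5 µg/mL 16869 and 9067 were lower, and against ions 17368 and 13817. Higher in the same order were 179 and 508, 134 and 569, and 141 and 498 genes. Over the 4 groups, 3 members became 6 with quantile normalization or either scaling and 7 with median centring. The scalings lower every gene at 25 µg/mL by construction. Median centring likewise shifts all genes of an array by the same amount, and raises those at 25 µg/mL relative to the other groups. The median of all genes, on which the arrays were centred, was 5.70 to 5.72 on the 25 µg/mL arrays and 5.79 to 5.86 on the medium arrays. The median over all probe sets lay the other way, at 4.76 to 4.78 on the 25 µg/mL arrays and 4.72 to 4.75 on the medium arrays. The calls gained with median centring thus depend on which median is used. For the remaining alternatives the cause was not tested.

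Of differences called under at least 1 of the settings compared, signs turned under poly-A scaling for CXCL1 against medium (-0.52) and 2.5 µg/mL (-0.50), CXCL2 against ions (-0.23), CXCL3 against ions (-0.78), CXCL5 against medium (-0.24), 2.5 µg/mL (-0.51) and ions (-0.52), and CCL20 against medium (-0.17) and 2.5 µg/mL (-0.31), and under hybridization scaling for CXCL3 against ions (-0.43) and CXCL5 against medium (-0.058). Of differences called under neither, those with 25 µg/mL also turned for CXCL2 against medium (-0.27 and -0.080 under poly-A and hybridization scaling) and 2.5 µg/mL (-0.40 and -0.0033) and CCL20 against ions (-0.47 and -0.11), and under hybridization scaling for CXCL1 against medium (-0.34) and 2.5 µg/mL (-0.099) and CXCL5 against 2.5 µg/mL (-0.11) and ions (-0.17). In models of just the compared groups, members called higher went from 3 to 2 against medium (CCL20 lost) and from 2 to 3 against 2.5 µg/mL (CXCL2 gained, adjusted p = 0.040). Leaving out each array gave 2 to 3 higher and 1 to 2 lower against medium, 1 to 3 and 1 to 2 against 2.5 µg/mL, 1 to 3 and 2 to 3 against ions, and 3 to 4 over the 4 groups. Calls were gained against 2.5 µg/mL for CXCL2 without medium replicate 1 (adjusted p = 0.044), CX3CL1 without 2.5 µg/mL replicate 2 (0.021) and CXCL5 without ion replicate 3 (0.036), and against ions for CX3CL1 without 2.5 µg/mL replicate 2 (0.048) and CXCL5 without ion replicate 1 (0.037) or 2 (0.039). For 2.5 µg/mL or ions against medium and for these against each other, 0 members were called throughout. No paired analysis was possible because the labels give no replicate numbers that tie arrays of different groups together. Of the members, 6 lay below the median of all genes on all 12 arrays and CXCL8 on 9, which limits their folds, and 3 arrays per group limit the precision.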
